A study of Mus musculus with 6 samples.

Results

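The genes described here encode the integrins and the adaptor proteins that link them to actin at focal adhesions: 17 alpha chains, 8 beta chains, 5 talins and kindlins, vinculin, paxillin and zyxin, ILK with its 3 parvins, and the kinases FAK and PYK2. They were taken from the count table by gene symbol, and all 39 symbols were found among its 49568 genes. The table covers 6 RNA-seq libraries of MC/9, an established mouse mast cell line. All 6 carry that same line and no genetic change is named; 3 are untreated controls and 3 received rPTH at 10 nM for 24 h. The labels do not spell out rPTH. According to the design text, the mast cells were placed on a layer of 7F2, a mouse osteoblast line, before rPTH was added, and were then harvested from that co-culture; whether the controls shared it is not stated, and no step that parts mast cells from osteoblasts is described in the sources used here. Nothing says that the 3 libraries of a group come from separate cultures, so each p-value measures only the spread between these libraries, which may be technical.

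Integrins are receptors made of 1 alpha and 1 beta chain that bind matrix proteins or molecules on other cells. Talins and kindlins bind the short tail of the beta chain inside the cell and switch the receptor to its high-affinity state, after which vinculin, paxillin, zyxin and the complex of ILK with a parvin tie it to actin and FAK or PYK2 signals from it. Blood cells use their own versions of several of these parts, such as kindlin-3, gamma-parvin and PYK2, where connective tissue cells use kindlin-2, alpha-parvin and FAK; mast cells use integrins to settle in tissues and to attach to matrix.

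Library totals ran from 22282095 to 33577977 counts, with all rPTH libraries above the controls. Levels of single genes are given as CPM, the count over a library total corrected with the TMM factor that edgeR fits for composition; summed levels, ratios and shares use plain CPM, over the uncorrected total. Where a gene has 0 counts, a level of up to 3 counts (0.0893 to 0.135 CPM) is still possible; this limit takes in counting error alone, because PCR copies without molecular identifiers cannot be told from separate molecules. Control 1 stood apart in composition: its TMM factor was 0.81 against 1.03 to 1.063 in the others. Mast cell markers were abundant (Fcer1a mean 1603 ± 407 CPM in controls against 1366 ± 267 under rPTH, Kit 494 ± 187 against 510.5 ± 53.5, SD of 3 libraries), and only the protease gene Mcpt4, at 0 to 4 counts, was too low to test among 10 such markers. RNA of osteoblast and stromal cells was present in every library: 15 markers summed to 603 to 696 plain CPM in controls and to 838 to 1356 with rPTH, none was at 0 in all libraries, and rPTH 1 had the highest sum. In such bulk libraries more cells of a type and more RNA per cell cannot be told apart.

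No integrin or adaptor gene passed the test of rPTH against control. In edgeR's quasi-likelihood test, 33 of the 39 genes were high enough to test, and 0 had an adjusted p under 0.05, as was the case for 0% of all 16696 tested genes. Their adjusted p ran from 0.619 to 0.972. An unadjusted p under 0.05 was reached by 1 of the 33 genes, Fermt2, against 7.87% of all tested genes (1.98% higher and 5.89% lower with rPTH). All 3 rPTH libraries lay above the controls for 6 of the 33 genes (8.44% of all tested genes) and below them for 2 (8.39%), together 8 against a background of 16.8%; in plain CPM these were 11 (13.5%) and 0 (5.65%). Besides TMM and plain CPM, levels were also scaled with RLE factors, DESeq2's kind of size factor, and by the total over protein-coding genes, 4 scalings in all. DESeq2 and limma-voom also called 0 of these genes, with 4 of 39 and 2 of 33 at an unadjusted p under 0.05 against 5.22% and 4.73% of all genes. Of the 33 genes 23 had a positive log2 fold change (rPTH minus control; median 0.20), against 41.5% of all tested genes (median -0.09). All 39 genes are protein-coding, whereas the tested genes also include other classes. In a fit of the 12308 protein-coding genes alone, the median was 0.00 for all genes and 0.22 for these. Of all genes at an unadjusted p under 0.05, 67.0% were higher with rPTH in that fit, against 25.2% in the main fit. The 41.5%, -0.09 and 1.98% used below as background are not limited to protein-coding genes. With scaling by library totals alone, the median was 0.36 for these genes and 0.04 for all tested genes, a shift of both in the same direction. It was lower for these genes, at 0.14 (all genes -0.04), with each library's trend with exon length removed. Without rPTH 1 it was 0.15 (all genes -0.11). The 6 genes too low to test were Itga2, Itga4, Itga8, Itgam, Itgax and Fermt1, with at most 11 counts in any library.

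**Figure D1:**
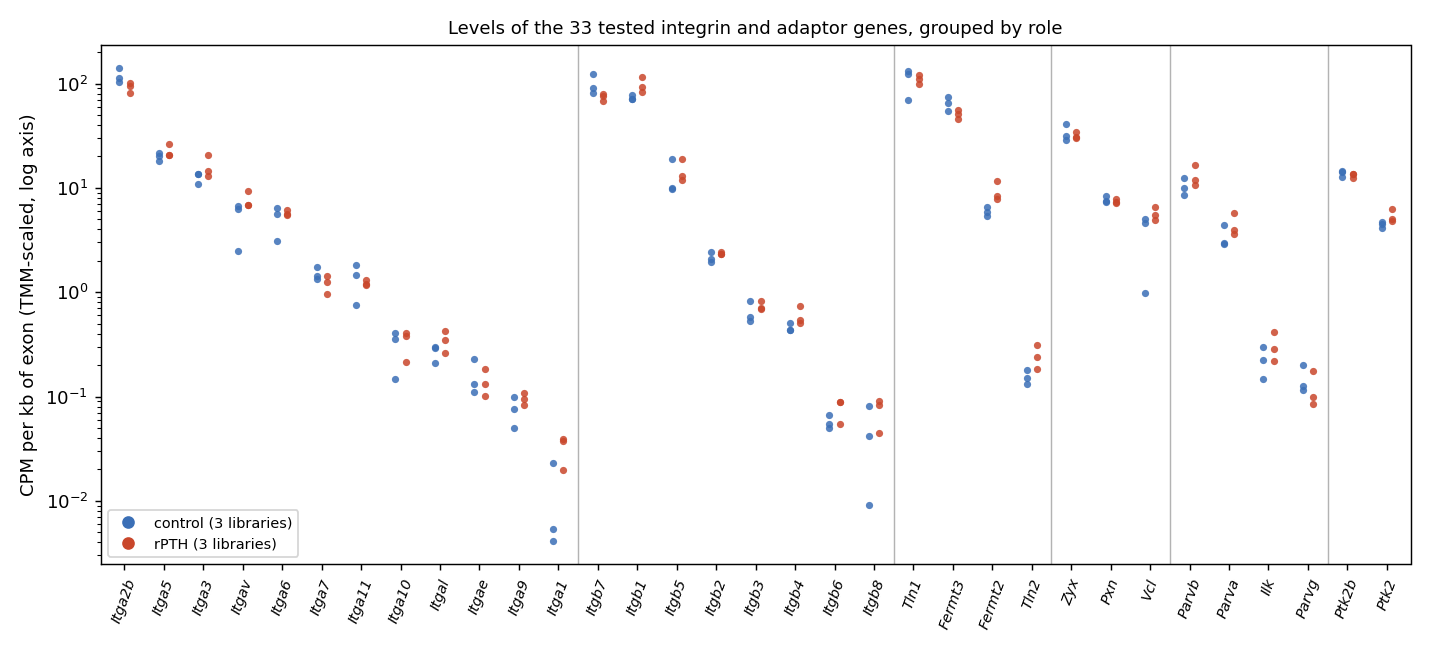
Level of each of the 33 tested genes in each library, as TMM-scaled CPM per kb of exon on a log axis; blue points are the 3 controls and red points the 3 rPTH libraries, and vertical lines part the roles. Levels span from Itga1 below 0.1 CPM per kb to Itga2b, Tln1, Itgb7 and Itgb1 with group means of 73.2 CPM per kb or more. Control and rPTH points separate for 8 of the 33 genes, against 16.8% of all tested genes.

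Among the alpha chains, which determine the ligand, Itga2b was the most abundant per length. It encodes the alpha-IIb chain, best known from platelets, where it forms the fibrinogen receptor with the beta-3 chain, and it spans chromosome 11 from 102453297 to 102470122 (GRCm38, minus strand). Its level per kb of exon was 119 ± 18.8 CPM without and 92.9 ± 10.7 CPM with rPTH (SD of 3 libraries). In TMM-scaled CPM it had 764, 621 and 565 in the controls, listed in the order 1 to 3 as throughout, and 443, 521 and 556 with rPTH. Every rPTH library thus lay below every control, as for 8.39% of all tested genes, but in plain CPM and with RLE factors the groups overlapped. The log2 fold change of Itga2b was -0.36 ± 0.21 (SE; edgeR adjusted p = 0.628) and -0.24 without control 1. Of the platelet markers, Gp1ba had 43.2 ± 6.12 CPM without and 41.9 ± 7.71 CPM with rPTH (SD of 3), while Pf4 had at most 2 counts in a library, Ppbp 3 to 10, Gp1bb 12 to 27 and Gp9 14 to 33.

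The next alpha chains by level per kb were Itga5 (19.8 ± 1.73 and 22.5 ± 3.4 CPM per kb in controls and with rPTH), the main fibronectin receptor chain, Itga3 (12.8 ± 1.57 and 16.0 ± 3.98), a laminin receptor chain, and Itgav (5.14 ± 2.31 and 7.69 ± 1.41), which binds vitronectin and other RGD proteins; Itgav and Itga6 (5.01 ± 1.71 and 5.72) did not differ beyond their spread in controls. Itga5 had 106, 99.0 and 88.8 CPM in the controls and 130.2, 102 and 101 CPM with rPTH; with the other 3 scalings all rPTH libraries lay above the controls. Itga3 had 78.2, 77.8 and 62.5 CPM in the controls and 117, 82.6 and 74.1 CPM with rPTH. For both genes the groups overlapped in these TMM-scaled values and rPTH 1 was the highest library. Itgav had 26.6, 71.3 and 67.7 CPM in the controls and 100.1, 73.7 and 74.1 CPM with rPTH. All 3 rPTH libraries of Itgav lay above the controls, as for 8.44% of all tested genes, though rPTH 2 and 3 only by a few CPM, and control 1 was far below the other 2 controls. The log2 fold changes were 0.18 ± 0.17 for Itga5, 0.32 ± 0.22 for Itga3 and 0.58 ± 0.37 for Itgav (SE; edgeR adjusted p = 0.689, 0.629 and 0.629). Without rPTH 1 they were 0.05, 0.11 and 0.42, and without control 1 that of Itgav was 0.24.

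The remaining tested alpha chains were lower. Of the laminin receptor chains, Itga6 averaged 45.2 ± 15.4 in controls and 51.6 ± 2.92 under rPTH, and Itga7 12.2 ± 1.77 and 9.88 ± 1.98 (CPM, SD of 3), and the collagen receptor chain Itga11 had 6.92 ± 2.8 and 6.29 ± 0.356 CPM. Itga9, Itga10, Itgae and Itgal had mean levels of 0.576 to 2.27 CPM in either group. Itga1, a collagen receptor chain, had only 2, 2 and 10 counts in the controls and 22, 25 and 13 counts with rPTH. Its log2 fold change of 1.52 ± 0.68 (SE; edgeR adjusted p = 0.619) was the highest of the 33 and rests on these few counts; it ran from 1.11 to 2.78 over the 15 alternative fits, which use other tools, scalings or filters or leave out a library.

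Of the beta chains, Itgb7 and Itgb1 were at similar levels per length and the others far lower. Itgb1, the common partner of many matrix-binding alpha chains, lies on chromosome 8 from 128685654 to 128733200 (GRCm38, plus strand), and Itgb7, a leukocyte chain, on chromosome 15 from 102215995 to 102231944 (minus strand). Per kb of exon Itgb7 stood at 98.7 ± 22.9 CPM without and 74.9 ± 6.46 CPM with rPTH, and Itgb1 at 73.2 ± 3.16 and 96.6 ± 17.1 CPM (SD, n = 3 each). Next came Itgb5, a partner of the alpha-v chain (12.8 and 14.6 CPM per kb), and Itgb2, the common beta chain of leukocyte integrins (2.16 and 2.37 CPM per kb). Per kb, Itgb7 was above Itgb1 in each control library and below it in each rPTH library, with the narrowest gaps in control 3 and rPTH 3. That order depends on the exon lengths used, 2.77 kb for Itgb7 and 4.081 kb for Itgb1. In TMM-scaled CPM not divided by length, Itgb1 was above Itgb7 in control 2 and control 3 as well.

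Itgb1 had 292, 291 and 314 CPM in the controls and 471, 377 and 335 CPM with rPTH. All 3 rPTH libraries lay above the controls under each of the 4 scalings tried, and rPTH 1 was the highest. For Itgb1 the log2 fold change was 0.40 ± 0.19 (SE; edgeR adjusted p = 0.625) and 0.25 without rPTH 1. Itgb7 had 344, 253 and 223 CPM in the controls and 188, 212 and 222 CPM with rPTH. The rPTH libraries lay below the controls, by about 1 CPM between rPTH 3 and control 3, and in plain CPM and with RLE factors the groups overlapped. Its log2 fold change was -0.40 ± 0.21 (SE; adjusted p = 0.628) and -0.21 without control 1. Itgb4, the laminin receptor chain of epithelia, was low but did not overlap, with 3.04, 3.52 and 3.06 CPM in the controls and 5.17, 3.82 and 3.53 CPM with rPTH; control 2 and rPTH 3 nearly touched, and its log2 fold change of 0.38 ± 0.26 was 0.20 without rPTH 1. Itgb5 had 66.6, 34.7 and 35.3 CPM in the controls and 67.5, 45.8 and 42.7 CPM with rPTH, so that control 1 sat with rPTH 1; its log2 fold change of 0.19 ± 0.32 became 0.56 without control 1 and -0.04 without rPTH 1. Itgb2 had 7.39, 6.38 and 6 CPM in the controls and 7.04, 7.16 and 7.48 CPM with rPTH, overlapping through control 1; with the other 3 scalings all rPTH libraries lay above the controls, and its log2 fold change of 0.13 ± 0.20 became 0.21 without control 1. Itgb3 (3.79 ± 0.911 and 4.35 ± 0.406 CPM) overlapped under each of the 4 scalings, and Itgb6 and Itgb8 had under 1 CPM on average.

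The beta-7 and alpha-IIb chains were abundant without RNA of a known partner at a matching level. The beta-7 chain is known to pair with alpha-4 or alpha-E. Itga4 had 1, 3 and 1 counts in the controls and 0, 0 and 3 counts with rPTH, and Itgae had 10, 27 and 14 counts and 19, 16 and 30 counts, against 5158 to 7943 counts of Itgb7. Per kb of exon the 2 alpha chains together came to 0.0918% to 0.259% of Itgb7 in the 6 libraries. The alpha-IIb chain pairs with beta-3, and Itgb3 had 3.39, 4.83 and 3.15 CPM in the controls and 4.09, 4.14 and 4.82 CPM with rPTH. Per kb, Itga2b was 244, 139 and 194 times as high as Itgb3 in the controls and 117, 136 and 125 times with rPTH, below every control. The exact two-sided permutation test of this ratio gave p = 0.1, the smallest that 3 libraries against 3 allow (adjusted p = 0.233 over 7 gene pairs). Itgal, which forms LFA-1 with the beta-2 chain, had 1.37, 1.9 and 1.94 CPM in the controls and 2.79, 1.71 and 2.3 CPM with rPTH, and Itgb2 was 5.43 to 11.6 times as high per kb. Itgam and Itgax, the other beta-2 partners listed, had 8 counts at most in a library. The count of Itgam is uncertain, because 68.7% of its exon length overlaps Gm49368 on the same strand. These are RNA levels; the receptors on the cell surface were not measured.

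The make-up of the integrin chains within each library does not depend on the scaling between libraries. Itga2b made up 76.2%, 69.0% and 69.9% of the summed alpha chain CPM per kb in the controls, against 55.5%, 65.1% and 67.2% with rPTH. Itga5 made up 11.7% to 12.2% in controls and 13.5% to 18.1% with rPTH, Itga3 7.38% to 8.27% and 8.55% to 14.0%, and Itgav 1.35% to 4.25% and 4.55% to 6.37%. Among the beta chains the share of Itgb7 was 57.0%, 52.0% and 47.2% in the controls and 32.9%, 41.3% and 45.0% with rPTH, and that of Itgb1 was 32.8%, 40.5% and 45.2% and then 56.0%, 49.8% and 46.0%. For these 6 genes the groups did not overlap, with rPTH 1 at the far end in each case and rPTH 3 close to control 3 for both beta chains. How often other genes would separate on this scale was not computed, so the 6 cannot be set against a background. The shares add up to a fixed total, so a lower share of Itga2b or Itgb7 goes with higher shares of other chains. These 6 separations are therefore not separate results. The shares of Itga6, Itgb2, Itgb3 and Itgb5 overlapped between the groups.

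**Figure D2:**
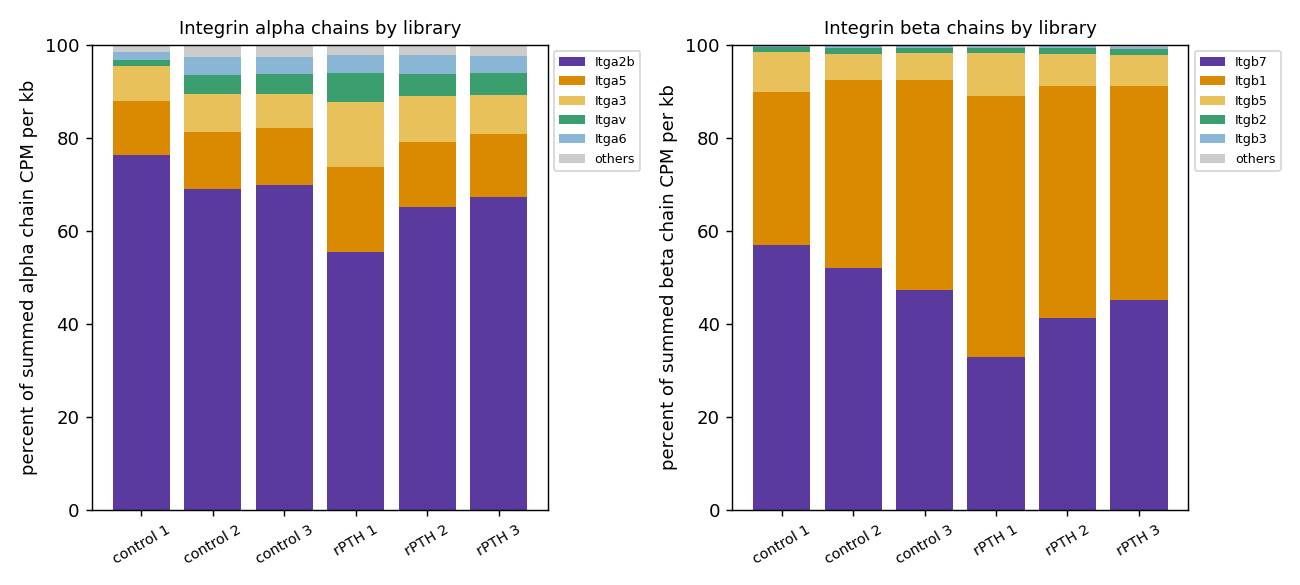
Share of each integrin alpha chain (left) and beta chain (right) in the summed CPM per kb of exon, as stacked percentages for each of the 6 libraries. The Itga2b share runs from 69.0% to 76.2% in controls and from 55.5% to 67.2% with rPTH, and Itgb1 takes more of the beta chain sum in each rPTH library (46.0% to 56.0%) than in any control (32.8% to 45.2%).

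Talins and kindlins act directly on the beta chain tail. Tln1, the talin of most cells, was among the most abundant genes of all 39 per kb (108 ± 33.9 CPM without and 110.2 ± 10.9 CPM with rPTH, SD of 3). It had 681, 1301 and 1198 CPM in the controls and 1088, 969 and 1182 CPM with rPTH: control 1 was the lowest library and the groups overlapped (log2 fold change 0.03 ± 0.29, SE; edgeR adjusted p = 0.972). Tln2, its less widely used paralogue, had 2.43, 2.75 and 3.28 CPM in the controls and 5.67, 3.39 and 4.37 CPM with rPTH, with all 3 rPTH libraries above (log2 fold change 0.66 ± 0.29, SE; adjusted p = 0.619), and 0.22 after removal of each library's trend with exon length.

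Fermt3, which encodes the blood cell kindlin-3, had 426, 380.2 and 316 CPM in the controls and 262, 296 and 320.2 CPM with rPTH. Only rPTH 3 and control 3 crossed. Fermt3 had a log2 fold change of -0.35 ± 0.19 (SE; edgeR adjusted p = 0.628). Fermt2, which encodes kindlin-2 of adherent cells and lies on chromosome 14 from 45458795 to 45530118 (GRCm38, minus strand), had 27.6, 34.3 and 30.6 CPM in the controls and 60.9, 43.6 and 40.9 CPM with rPTH. All rPTH libraries lay above all controls under each of the 4 scalings tried, with rPTH 1 highest. The log2 fold change of Fermt2 was 0.65 ± 0.20 (SE; unadjusted p = 0.0152, edgeR adjusted p = 0.619) and ran from 0.46, without rPTH 1, to 0.76 over the alternatives, with adjusted p between 0.197 and 0.922. Per kb of exon Fermt3 was 13.8, 9.96 and 9.26 times as high as Fermt2 in the controls and 3.86, 6.1 and 7.02 times with rPTH, so that the blood cell form prevailed in all 6 libraries and by less in each rPTH library. The exact two-sided permutation test of this ratio gave p = 0.1, the smallest possible here (adjusted p = 0.233 over 7 pairs). Fermt1, the epithelial kindlin, had 1 to 5 counts per library.

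The promoter windows of both kindlin genes are shown because their ratio separated the groups, and that of vinculin because it carries the same element as Fermt2. Each window holds 300 bases around the start of the gene in RefSeq (GRCm38.p6), 5′ to 3′ on the gene's strand, and capitals mark a CArG box, the site of serum response factor, which drives many genes of the actin cytoskeleton. The windows are chr14:45530016-45530315 for Fermt2 (minus strand), chr19:7019420-7019719 for Fermt3 (minus strand) and chr14:20929148-20929447 for Vcl (plus strand).
Fermt2: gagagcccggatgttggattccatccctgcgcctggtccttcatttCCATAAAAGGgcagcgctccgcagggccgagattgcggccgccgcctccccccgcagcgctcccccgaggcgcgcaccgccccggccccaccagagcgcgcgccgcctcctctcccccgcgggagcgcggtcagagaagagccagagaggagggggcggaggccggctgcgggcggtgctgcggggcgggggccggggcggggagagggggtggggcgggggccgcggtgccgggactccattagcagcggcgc
Fermt3: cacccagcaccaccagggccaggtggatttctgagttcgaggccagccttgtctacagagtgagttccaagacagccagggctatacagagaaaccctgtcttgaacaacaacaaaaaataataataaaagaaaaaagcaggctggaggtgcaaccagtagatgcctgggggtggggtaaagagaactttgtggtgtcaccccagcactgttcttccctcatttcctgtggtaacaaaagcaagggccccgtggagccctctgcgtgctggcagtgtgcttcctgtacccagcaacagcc
Vcl: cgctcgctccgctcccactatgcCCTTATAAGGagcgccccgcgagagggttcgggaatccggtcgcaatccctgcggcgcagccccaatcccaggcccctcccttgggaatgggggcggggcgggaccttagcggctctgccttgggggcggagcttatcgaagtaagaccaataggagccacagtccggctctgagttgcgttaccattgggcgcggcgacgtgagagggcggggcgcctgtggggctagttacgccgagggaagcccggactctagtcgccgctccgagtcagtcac

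RefSeq windows were found for 27 of the 39 genes (31 windows). On either strand, a CArG box was in the windows of Fermt2, Vcl and Itgb6, 3 of 31, against 1.63% of all 32851 windows. The other motifs searched, also on both strands, were AGATAA or TGATAA, the site of GATA factors (1 of 31 windows, that of Itgax, against 18.6% of all), CCGGAA, the core of ETS factor sites (5 of 31 against 14.9%), and TGTGG, the core of RUNX sites (20 of 31 against 55.9%). A match describes letters in a window and shows no binding. The motifs were chosen after the values were seen, and a link of the CArG box to any level was not tested. Itgb6, whose window is not shown, averaged 0.48 CPM over all libraries. The Fermt2 and Vcl windows were 76.7% and 66.7% G or C and that of Fermt3 52.3%.

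Vcl, which encodes the actin-binding protein vinculin, had 8, 41.3 and 38.1 CPM in the controls and 53.3, 40.6 and 44.8 CPM with rPTH. Control 1 was far below the other controls, and rPTH 2 lay among the controls. Its log2 fold change was 0.66 ± 0.54 (SE; edgeR adjusted p = 0.656) and 0.21 without control 1. The exons of Vcl overlap those of Ap3m1 on the other strand over 25.5% of their length, and no source used here gives the strand setting, so reads of both genes cannot be told apart there. Paxillin (Pxn), a scaffold of early adhesions, averaged 63.2 ± 5.08 CPM without and 61.1 ± 3.25 CPM with rPTH (SD of 3). Zyx, a marker of mature adhesions, was the most abundant of these 3 per kb and had 219, 168 and 155 CPM in the controls and 184, 164 and 162 CPM with rPTH, with control 1 highest. The log2 fold changes of Pxn and Zyx, -0.05 ± 0.15 and -0.09 ± 0.19 (SE), were within their errors.

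In the ILK complex, which ties the beta chain to actin, the parvin of blood cells was at a few counts per library. Parvg had 7, 16 and 9 counts in the controls and 17, 9 and 11 counts with rPTH, or 0.354, 0.619 and 0.388 CPM and 0.539, 0.261 and 0.308 CPM. Parva, the parvin of adherent cells, had 45.0, 30.4 and 29.6 CPM and then 58.8, 39.9 and 36.9 CPM. Per kb Parva was 14.9 to 46.6 times as high as Parvg, the reverse of the order seen for kindlins. In TMM-scaled CPM the groups overlapped for both genes, and the log2 fold change of Parva, 0.37 ± 0.26 (SE; edgeR adjusted p = 0.635), was 0.13 without rPTH 1, 0.58 without control 1 and 0.02 after removal of the length trend. Parvb had 45.3 ± 8.63 and 57.6 ± 13.4 CPM (SD, n = 3 each) and stayed at 2.79 to 3.32 times the level of Parva per kb in all 6 libraries. Ilk itself was counted at only 8 to 36 reads per library. Of its exon length 76.7% overlaps Taf10 and 12.9% Rrp8, both on the other strand, so its count cannot be read as its level. Overlap on the same strand also leaves Itgam (68.7%, with Gm49368) and Itga10 (33.5%, with Gm42957) uncertain.

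Of the 2 adhesion kinases, PYK2 (Ptk2b), the form of blood and nerve cells, was the more abundant per kb in all 6 libraries. Ptk2b had 93.4, 108 and 104 CPM in the controls and 91.1, 100.3 and 101 CPM with rPTH, and the groups overlapped (log2 fold change -0.06 ± 0.15, SE; edgeR adjusted p = 0.86). FAK (Ptk2) had 48.4, 52.9 and 55.0 CPM in the controls and 74.6, 59.7 and 57.1 CPM with rPTH, with all 3 rPTH libraries above. Its log2 fold change was 0.29 ± 0.17 (SE; adjusted p = 0.628), 0.16 without rPTH 1 and -0.03 after removal of the length trend. Per kb Ptk2b was 3.08, 3.27 and 3.02 times as high as Ptk2 in the controls and 1.95, 2.68 and 2.83 times with rPTH. This ratio keeps each library's length trend, after removal of which the log2 fold change was -0.22 for Ptk2b and -0.03 for Ptk2. The exact two-sided permutation p of this ratio was 0.1, the smallest possible (adjusted p = 0.233 over 7 pairs). For Tln1 over Tln2 it was 0.2, for Parva over Parvg 0.3, for Itgb7 over Itgae 0.7 and for Itgb2 over Itgal 0.6, and the groups overlapped in these 4 ratios.

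**Figure D3:**
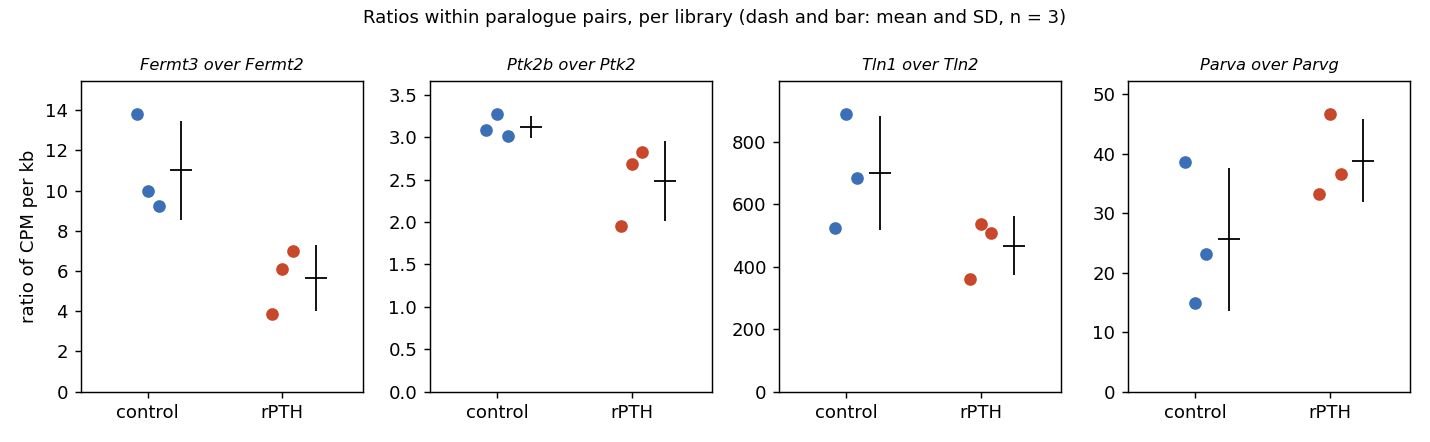
Ratio of CPM per kb within 4 paralogue pairs for each library (points) with the mean and SD of 3 libraries per group (dash and bar), each axis starting at 0. Fermt3 over Fermt2 is 9.26 to 13.8 in controls and 3.86 to 7.02 with rPTH and Ptk2b over Ptk2 is 3.02 to 3.27 and 1.95 to 2.83, while the groups overlap for the other 2 pairs.

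**Figure D4:**
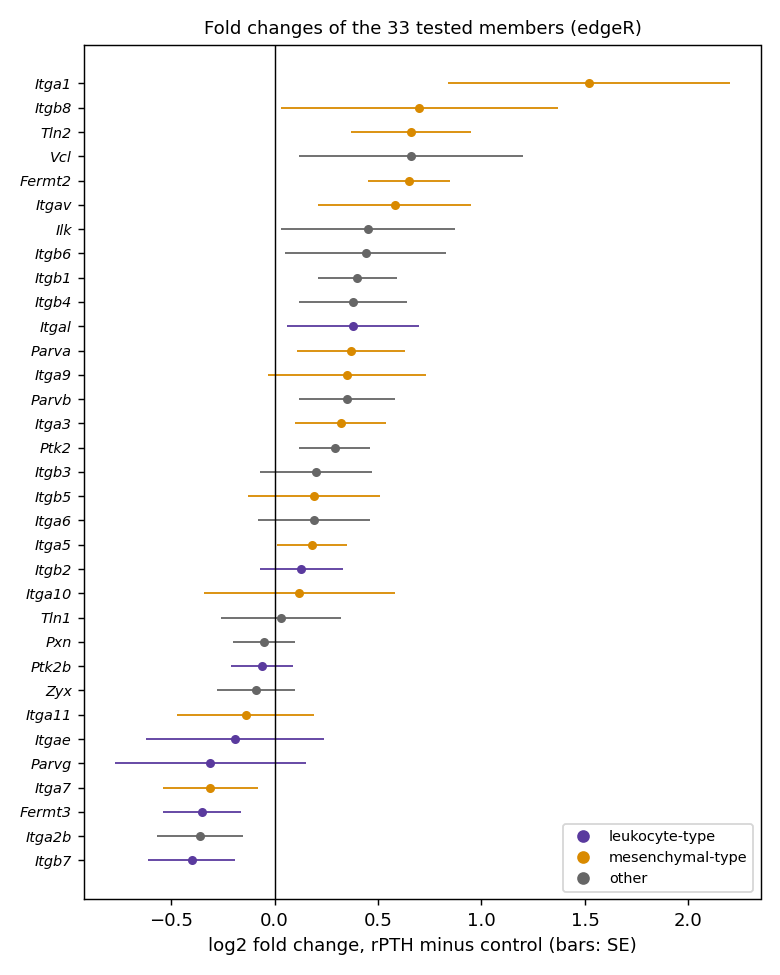
Log2 fold change of each tested gene, rPTH minus control, with the SE of the edgeR fit as bars; colours mark genes known mainly from blood cells (leukocyte-type), genes used by mesenchymal cells (mesenchymal-type) and the rest. Itga1 has the highest value (1.52) and Itgb7 the lowest (-0.40), and none of the 33 passed the test.

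The genes can be set against the RNA of osteoblast and stromal cells in the same libraries. The 14 genes of broad or mesenchymal use (Itga1, Itga3, Itga5, Itga7, Itga8, Itga9, Itga10, Itga11, Itgav, Itgb5, Itgb8, Fermt2, Parva and Tln2) had summed levels of 301, 388 and 354 CPM in the controls against 576, 429.9 and 421 CPM in the rPTH libraries, in plain CPM. Every rPTH library lay above every control, with means of 476 ± 87.0 and 347 ± 43.4 CPM (SD, n = 3 each), a difference of 128 CPM that was 78.1 CPM without rPTH 1. Of the 13 tested, 11 were above 0 in log2 fold change (median 0.35), against 41.5% of all tested genes (median -0.09). The 10 genes of blood cell type were Itga4, Itgae, Itgal, Itgam, Itgax, Itgb2, Itgb7, Fermt3, Parvg and Ptk2b. They summed to 708, 778 and 678 CPM in the controls and to 568, 648 and 697 CPM with rPTH, and the groups overlapped. Among the 7 tested, 2 were above 0, with a median of -0.19, against the same 41.5% and -0.09 for all tested genes. The lists of both types, and those of markers, were chosen with earlier results of these data known. Their counts are therefore descriptions and no independent test of a direction. Of 9 tested mast cell markers 3 had a positive and 6 a negative log2 fold change (median -0.23), where 41.5% of all tested genes were positive (median -0.09). For 2, Tpsb2 (825 ± 323 and 537 ± 99.7 CPM) and Gata2 (1104 ± 66.1 and 932 ± 97.2 CPM), all rPTH libraries lay below the controls in TMM-scaled CPM. This held for 8.39% of all tested genes, and in plain CPM both markers overlapped. In plain CPM the 10 mast cell markers summed to 7292 to 7779.8 in controls and 6207 to 8147 with rPTH, lowest in rPTH 1, and their part in the blood cell type values was not tested. Within a library the blood cell sum was 2.35, 2.01 and 1.92 times the mesenchymal sum in controls and 0.987, 1.51 and 1.65 times with rPTH.

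The stromal markers were highest in the same library as the mesenchymal-type genes. In plain CPM the 15 markers summed to 603, 696 and 639 in the controls and 1356, 838 and 935 with rPTH, 1.61 times as high on average against 1.37 times for the mesenchymal-type genes. Of 14 tested markers 13 had a positive log2 fold change (median 0.56), against 41.5% of all tested genes (median -0.09). In the edgeR test 7 were at an unadjusted p under 0.05, all higher with rPTH (1.98% of all tested genes). All rPTH libraries lay above the controls for 13 of the 14 in plain CPM (13.5% of all tested genes) and for 8 in TMM-scaled CPM (8.44%), while Bglap, a late osteoblast marker, had at most 5 counts in a library. The ratio of mesenchymal-type genes to stromal markers was 0.5, 0.556 and 0.554 in the controls and 0.425, 0.513 and 0.451 with rPTH. By both sums in plain CPM control 1 was the lowest library and rPTH 1 the highest, while rPTH 2 and rPTH 3 stood in opposite order; with TMM scaling control 1 had the highest stromal sum of the controls, 745 CPM. The part of these cells in the values of Fermt2, the other mesenchymal-type genes and Itgb1 was not tested. Markers of macrophages summed to 5.21 to 6.92 plain CPM over the 6 libraries, and those of T and B cells to 0.359 to 0.728 CPM.

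**Figure D5:**
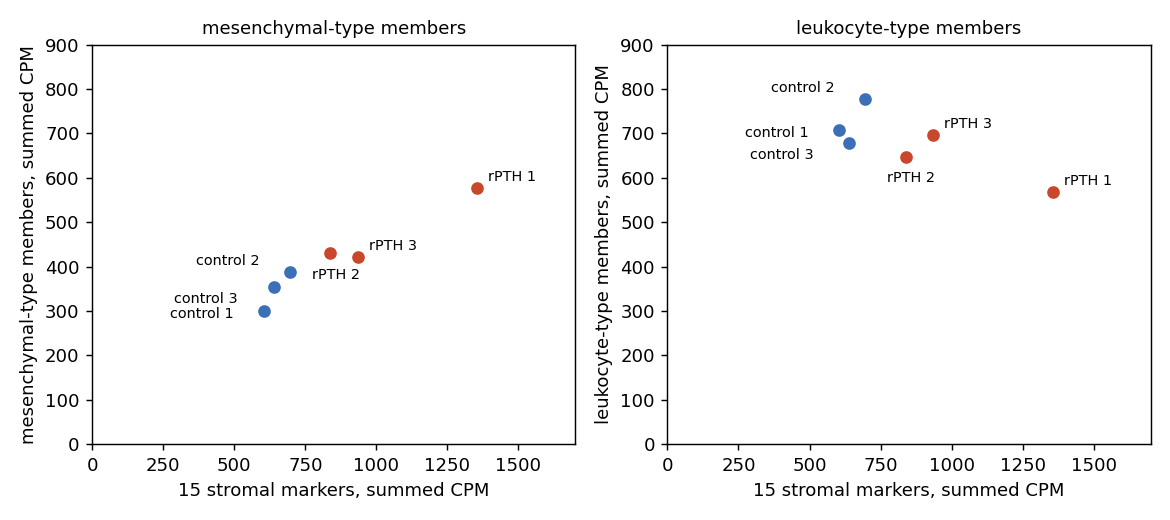
Summed plain CPM of the mesenchymal-type genes (left) and the leukocyte-type genes (right) against the sum over 15 markers of osteoblasts and stroma, 1 point per library, both axes from 0. The rPTH 1 library lies apart at 1356 CPM of stromal markers, with the highest mesenchymal-type sum (576 CPM) and the lowest leukocyte-type sum (568 CPM).

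No other gene of the pathway passed the test either. Of 55 activators, tail-binding proteins, kinases and GTPases, 51 were tested with edgeR and 0 passed; 2 were at an unadjusted p under 0.05, both higher with rPTH, against 1.98% of all tested genes on that side. Their log2 fold changes ran from -0.56 to 1.02, with a median of 0.08. All 3 rPTH libraries lay above the controls for 10 of the 51 (8.44% of all tested genes) and below for 4 (8.39%). The 6 of smallest p were the actin cross-linker Actn1 (52.0 ± 7.51 CPM without and 83.3 ± 20.7 CPM with rPTH, SD of 3; log2 fold change 0.68 ± 0.22, SE), the Ena/VASP ligand Raph1 (18.5 ± 6.23 and 33.3 ± 8.41 CPM), the adaptor Crk (82.6 ± 11.8 and 109 ± 12.6 CPM), the tensin Tns3 (56.0 ± 15.5 and 86.8 ± 23.7 CPM), the Rap1 exchange factor Rapgef4 at 3 to 19 counts per library, and the ILK partner Lims1 (69.6 ± 17.0 and 93.1 ± 8.76 CPM). Their edgeR adjusted p ran from 0.619 to 0.628.

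Among the integrin ligands, 24 of 31 were tested with edgeR and 0 passed. Of the 24, 19 had a positive log2 fold change (median 0.40; 41.5% of all tested genes were positive), and 3 were at an unadjusted p under 0.05, all higher with rPTH (1.98%). All rPTH libraries lay above the controls for 8 of the 24 (8.44%) and below for 0 (8.39%). The 6 of smallest p were the collagen chain Col1a2 (109 ± 10.3 and 171 ± 43.0 CPM), nephronectin Npnt, a ligand of the alpha-8 chain (5.16 ± 1.08 and 8.9 ± 2.33 CPM), Vcam1, a ligand of alpha-4 integrins (15.4 ± 2.69 and 23.0 ± 5.21 CPM), Nid1 (93.0 ± 36.6 and 166 ± 48.1 CPM), Thbs1 (83.1 ± 29.1 and 140.2 ± 40.0 CPM) and fibronectin Fn1 (425 ± 158 and 758 ± 232 CPM; all SD, n = 3 each). All 6 had the 3 rPTH libraries above the controls and an edgeR adjusted p of 0.619. Col1a1, Col1a2 and Fbn1 of this list are also stromal markers, so this list is not independent of the stromal sum. The ligands Vtn, Ibsp, Icam4, Madcam1 and Cdh1 had at most 3 counts in a library.

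In the authors' deposited table none of the 30 genes of this set that have an adjusted p there was under 0.05 (0 of 30, against 0.0707% of all genes); their adjusted p ran from 0.168 to 0.996. The authors' deposited table gives Fermt2 a log2 fold change of 0.66 (p = 0.00473, adjusted p = 0.168), Itgb1 0.45 (p = 0.0222, adjusted p = 0.308), Tln2 0.64 (p = 0.0219, adjusted p = 0.307) and Itga1 0.83 (p = 0.0425, with no adjusted p). These 4 are named because they alone of the set had an unadjusted p under 0.05 there. The share of all genes under that p in the authors' table was not computed, so the 4 cannot be set against a background.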

How the data were processed

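RNA was measured in 6 MC/9 libraries; per the labels' protocols it was taken with Trizol and built into libraries with an Illumina TruSeq kit. The deposited table holds raw counts per gene symbol. The submitters' processing notes list GRCm38.p5 and mm9 as builds, and, with no role for any, featureCounts, Subread 1.5.0p3, STAR 2.5.2b, R 3.3.0, DESeq2 1.12.4 and Trimmomatic 0.36; they name no strand setting. A deposited signal table holds counts divided by 1 size factor per library and entered no result here. The authors' comparison table gives, per the file headers, log2 fold changes with errors, a Wald score, a mean signal, and p-values.

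Counts were tested with edgeR 4.0.16 in R 4.3.3 (quasi-likelihood test, robust, TMM factors, filterByExpr with minimum count 10, Benjamini-Hochberg adjustment over 16696 genes, threshold 0.05). The SE of a log2 fold change is its size divided by the square root of the F statistic. DESeq2 1.42.0 and limma 3.58.1 (voom) were alternatives. Levels are TMM-scaled CPM, and sums, ratios and shares use plain CPM. Exon lengths, positions and overlaps came from GENCODE M21 (GRCm38), matched by symbol for all 39 genes. No pair of libraries was a duplicate (chi-square of counts per degree of freedom 13.3 to 291). The lowest value was that of control 2 with rPTH 3, a pair across the groups, and the pairs with control 1 had 208 to 291. The members and lists were chosen with earlier results of these data known. Values in each library are given for genes at an unadjusted p under 0.05, genes of at least 1 CPM whose groups do not overlap, the 4 highest alpha chains, beta chains and adaptors per kb, and set paralogue and partner pairs; of the other pathway genes and the ligands, the 6 of smallest p each are named. Vcl, and the counts of Itga1, were added for their spread after their values were seen. The promoter motifs and the shares of summed levels were also chosen after the values were seen.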

Additional observations from a re-analysis of the deposited data

How the results depend on the processing

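Over 15 alternatives (DESeq2, limma-voom, RLE factors, library totals, no low-count filter, at least 1 CPM in 3 libraries, protein-coding genes alone, removal of the length trend, a replicate block, and leaving out each library in turn), the counts of called genes stayed at 0 for all genes, the integrin and adaptor genes, the pathway neighbours and the ligands. Of 21 named genes with a fold change 15 kept their sign throughout. The sign turned for Zyx with library totals (0.06), no filter (0.05) and without control 1 (0.06); for Ptk2b with library totals (0.05), no filter (0.06), DESeq2 (0.01) and without control 3 (0.04); for Tln1 with the length trend removed (-0.17), without control 1 (-0.22) and without rPTH 3 (-0.04); for Ptk2 with the length trend removed (-0.03); for Itgae without control 2 (0.19); and for Itgb5 without rPTH 1 (-0.04). Without single libraries the values ran from -0.15 to 0.06 for Zyx, -0.13 to 0.04 for Ptk2b, -0.22 to 0.20 for Tln1, -0.44 to 0.19 for Itgae and -0.04 to 0.56 for Itgb5. The cause was not tested. The number of integrin and adaptor genes at an unadjusted edgeR p under 0.05 was 1 in the fit reported, against 7.87% of all tested genes. It was 0 without rPTH 1 and 6 without control 1, and 5 with library totals and 6 with no filter. The share of all genes at this threshold is not given for these alternatives. Whether their counts exceed that background was therefore not tested. The summed leukocyte-type level differed by -83.7 CPM, by -151 CPM with TMM scaling, and by -113 to -49.0 CPM without single libraries; the mesenchymal-type difference ran from 78.1 to 156 CPM without single libraries. With a replicate block the called count was also 0 and no call was altered. The deviations of same-numbered libraries from their group means had r of -0.13, -0.32 and 0.14, against -0.27 to 0.35 for the other pairs. With 3 libraries per group, such values cannot settle whether the numbers pair the samples. Of all genes at an unadjusted p under 0.05, 25.2% were higher with rPTH, and 43.3% with library totals, 33.7% with RLE factors, 67.0% with protein-coding genes alone and 57.7% with the length trend removed; it ran from 9.44%, without control 2, to 48.5%, without rPTH 3, when single libraries were left out. Genes at a few counts per library, such as Itga1, Itga4 and Parvg, are limited by depth.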
